A study of Oryza sativa with 3 samples.

Results

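Rice chromosomes 2 and 6 carried 1299 of the 10250 peaks listed for 3 libraries of captured 5-hydroxymethylcytosine (5hmC), 496 of them on chromosome 2 and 803 on chromosome 6. The members are all peaks that the deposited lists place on either chromosome, whatever their height or length. The libraries came from genomic DNA of young panicles, the flower-bearing heads, 3 to 4 mm long, of LYP9, 93-11 and PA64s, with 1 library each. LYP9 is the hybrid of the other two, with the male-sterile line PA64s as seed parent and the indica line 93-11 as pollen parent. No other treatment, time or genotype distinguishes the groups in the labels, and whole panicles mix many cell types, so the share of cells that carry a peak cannot be read from its height.

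5hmC is an oxidised form of 5-methylcytosine, the main modified base of plant DNA. In animals it is made by TET dioxygenases and serves as an intermediate of demethylation, while plants have no known TET homologue and hold very little of it. The labels describe the libraries as made by chemical labelling, while a further label field names an antibody against 5hmC, which the protocol mentions for a dot blot. In the capture that the protocol describes, a glucosyltransferase adds an azide-bearing glucose to 5hmC, biotin is clicked onto the sugar, and streptavidin beads collect the fragments. Chromosomes 2 and 6 share blocks of duplicated genes left by a whole-genome duplication that preceded the radiation of the grasses. The comparison asked how alike the members of this pair are in their peaks. No annotation of the files' build was used, so duplicated genes could not be paired and peaks are named by position.

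LYP9 had 179 peaks on chromosome 2 and 289 on chromosome 6, 93-11 had 220 and 334, and PA64s had 97 and 180. The tags behind the whole lists numbered 10078296 in LYP9, 10007148 in 93-11 and 11948210 in PA64s. These totals include tags from every sequence. The authors called peaks with MACS, which extends each tag to the estimated fragment length and lists the places where tags pile up beyond a local background. The estimate was 81 bp in LYP9 and PA64s and 83 bp in 93-11, against a tag size of 81 bp, so tags were barely extended. Every peak carries the authors' own values: its pileup, the number of extended tags stacked at its summit, its fold enrichment over that background, and a −log10 p, used here as its strength. No control library was used in peak calling, so a place that gathers tags for any reason is listed like one enriched for 5hmC. With 1 library per cultivar, no difference between cultivars has a replicate check, and intervals cover counting error only.

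Chromosome 2 was sparser in peaks than chromosome 6. LYP9 had 4.98 peaks per Mb on chromosome 2 (95% Poisson interval 4.28 to 5.77) and 9.35 on chromosome 6 (8.30 to 10.5). In 93-11 the densities were 6.12 (5.34 to 6.99) and 10.8 (9.68 to 12.0), and in PA64s 2.70 (2.19 to 3.29) and 5.82 (5.00 to 6.74). The density of chromosome 2 was thus 0.533 times that of chromosome 6 in LYP9 (0.440 to 0.644), 0.567 times in 93-11 (0.476 to 0.674) and 0.463 times in PA64s (0.358 to 0.597). Chromosome 2 had the lowest density of the 12 nuclear chromosomes in LYP9 and PA64s and the second lowest in 93-11. Chromosome 6 ranked 5, 5 and 4 from the bottom in LYP9, 93-11 and PA64s. The other 10 nuclear chromosomes together had 9.93 peaks per Mb in LYP9, 11.2 in 93-11 and 6.96 in PA64s, above chromosome 6 in each list. Summed peak length differed more than peak number, with 592 bp per Mb on chromosome 2 against 1375 on chromosome 6 in LYP9, 758 against 1619 in 93-11 and 382 against 906 in PA64s.

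The order of the chromosomes was the same in 3 of 3 lists, with a mean difference of -4.06 peaks per Mb between chromosome 2 and chromosome 6. An exact sign-flip permutation test over the lists gave a two-sided p of 0.25, the smallest that 3 libraries allow, so no difference between the chromosomes could pass a threshold of 0.05. The same p of 0.25 was obtained for median length, median pileup and the share of peaks found in another list, which were also lower on chromosome 2 in 3 of 3 lists, and adjustment over the 4 tests left it at 0.25. The lists share the same places in the genome, so they are not fully independent views of a chromosome.

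The lists differed in length more on chromosome 2 than on most of the genome. On chromosome 2, 93-11 had 2.27 times as many peaks as PA64s (1.78 to 2.91), and on chromosome 6 it had 1.86 times as many (1.54 to 2.24). On the other 10 nuclear chromosomes the ratio was 1.61 (1.53 to 1.70), an interval apart from that of chromosome 2 and overlapping that of chromosome 6, with 0.838 times as many tags in 93-11. LYP9 had 1.85 times as many peaks as PA64s on chromosome 2 (1.43 to 2.39), 1.61 times on chromosome 6 (1.33 to 1.94) and 1.43 times elsewhere in the nuclear genome (1.35 to 1.51). LYP9 had 0.814 times as many peaks as 93-11 on chromosome 2 (0.664 to 0.996) and 0.865 times on chromosome 6 (0.737 to 1.02).

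**Figure D1:**
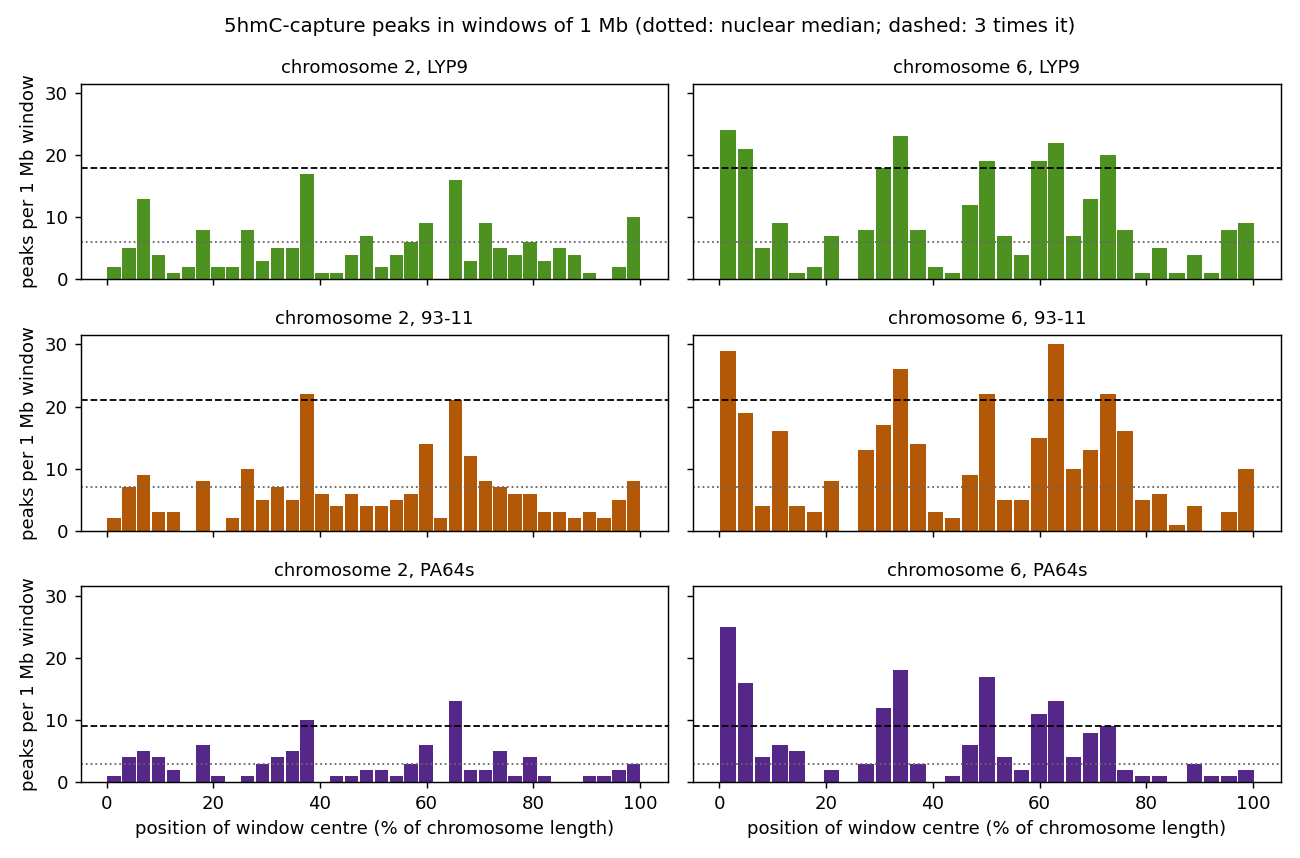
Peaks per window of 1 Mb (vertical axis) against the position of the window along chromosome 2 (left) and chromosome 6 (right) as a percentage of chromosome length, for LYP9, 93-11 and PA64s from top to bottom. The dotted line is the median nuclear window of the list and the dashed line 3 times that median, which chromosome 6 reaches in 8, 5 and 8 windows and chromosome 2 in 0, 2 and 2.

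Dense windows were more frequent on chromosome 6 than on chromosome 2. A window of 1 Mb was called dense where it held at least 3 times the count of the median nuclear window, which was 6 peaks in LYP9, 7 in 93-11 and 3 in PA64s. Over all nuclear windows 13.5% were dense in LYP9, 12.7% in 93-11 and 19.4% in PA64s. Of the 36 windows of chromosome 2, 0 were dense in LYP9, 2 in 93-11 and 2 in PA64s. Of the 31 windows of chromosome 6, 8 were dense in LYP9, 5 in 93-11 and 8 in PA64s. Dense windows held 57.4% of the LYP9 peaks of chromosome 6 (51.5 to 63.2), 38.6% of the 93-11 peaks (33.4 to 44.1) and 67.2% of the PA64s peaks (59.8 to 74.0). On chromosome 2 they held 0% in LYP9 (0 to 2.04), 19.5% in 93-11 (14.5 to 25.4) and 23.7% in PA64s (15.7 to 33.4). Over the nuclear genome dense windows held 48.0% of peaks in LYP9, 44.4% in 93-11 and 62.9% in PA64s. Chromosome 6 was above this share in LYP9 and PA64s and below it in 93-11, while chromosome 2 was below it in each list. The LYP9 value of chromosome 2 depended on where windows were cut, since its fullest windows held 17 and 16 peaks, just below the 18 required, and a shift of the windows by 500 kb raised the share to 17.3%.

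The median window held 4 peaks on chromosome 2 and 8 on chromosome 6 in LYP9, 5 and 9 in 93-11, and 2 and 3 in PA64s. Without the dense windows, a choice that removes the fullest windows and so brings the chromosomes together by construction, LYP9 had 4.97 peaks per window on chromosome 2 and 5.35 on chromosome 6, 93-11 had 5.21 and 7.88, and PA64s had 2.18 and 2.57. On chromosome 6, 5 windows were dense in all 3 lists and 3 more in 2 lists. On chromosome 2, 2 windows were dense in 2 lists. Empty windows on chromosome 2 numbered 2 in LYP9, 2 in 93-11 and 6 in PA64s, against 1, 2 and 4 on chromosome 6.

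The fullest window of chromosome 2 was that from 23 to 24 Mb, with 16 peaks in LYP9, 21 in 93-11 and 13 in PA64s. The window from 13 to 14 Mb held 17, 22 and 10 peaks and showed the widest gap between lists on this chromosome. The next, from 21 to 22 Mb, held 9, 14 and 6. In that window none of the 22 merged regions was present in all 3 lists, against 10 of 24 regions at 23 to 24 Mb and 7 of 28 at 13 to 14 Mb. Over all regions the share was 15.7% on chromosome 2 and 25.3% in the nuclear genome. The 6 PA64s peaks at 21 to 22 Mb limit how many regions there could be in all lists. The peaks of that window were also low, with a median pileup at the summit, per 1000000 tags of the library, of 1.29 in LYP9, 1.60 in 93-11 and 1.46 in PA64s.

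On chromosome 6 the first window, from 0 to 1 Mb, was the fullest on average, with 24 peaks in LYP9, 29 in 93-11 and 25 in PA64s. It is the only window named here in which PA64s had more peaks than LYP9. The window from 10 to 11 Mb held 23, 26 and 18 peaks, and that from 19 to 20 Mb held 22, 30 and 13, the widest gap between lists on chromosome 6. In these windows 24 of 24, 21 of 23 and 21 of 22 LYP9 peaks were found in a parent, against 76.5% of all nuclear LYP9 peaks. Of the 93-11 peaks 22 of 29, 22 of 26 and 21 of 30 were found in another list, against 66.1% over the nuclear genome, and of the PA64s peaks 21 of 25, 16 of 18 and 11 of 13, against 72.2%. The windows were picked for a high mean count over the lists. That choice can itself favour shared peaks, so these shares are a description.

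Each chromosome was also cut into 4 segments of equal length, a division chosen after the values were seen. Chromosome 6 was thinnest in segment 4, with 4.66 peaks per Mb in LYP9, 5.18 in 93-11 and 1.29 in PA64s. Segments 1, 2 and 3 had 8.93, 11.0 and 12.8 peaks per Mb in LYP9, 10.7, 12.9 and 14.4 in 93-11, and 7.51, 6.99 and 7.51 in PA64s. Chromosome 2 was fullest in segment 3, with 6.01, 8.79 and 3.79 peaks per Mb in LYP9, 93-11 and PA64s. Its segment 4 had 3.90, 4.23 and 1.45. Segments 2 and 3 were fuller than segment 4 on both chromosomes in each list.

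Peaks of chromosome 6 lay closer to each other. The median distance between neighbouring summits was 73.9 kb on chromosome 2 and 20.4 kb on chromosome 6 in LYP9, 51.6 and 14.6 kb in 93-11, and 144 and 11.3 kb in PA64s. Summits within 10 kb of another summit of the same list made up 44.1% of chromosome 2 peaks in LYP9 (36.7 to 51.7) and 62.3% of chromosome 6 peaks (56.4 to 67.9). The shares were 49.1% (42.3 to 55.9) and 66.2% (60.8 to 71.2) in 93-11, and 37.1% (27.5 to 47.5) and 65.6% (58.1 to 72.5) in PA64s. On the other 10 chromosomes 67.3%, 67.0% and 65.9% of peaks had such a neighbour in LYP9, 93-11 and PA64s. Chromosome 6 was close to these values and chromosome 2 lay below them in 3 of 3 lists.

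On chromosome 2 the longest chain of peaks lay at the same place in each list, and on chromosome 6 so did the 2 longest. Shorter chains of 93-11 on chromosome 2 recurred less. In 93-11, 3 of 7 peaks from 13591274 to 13601187 and 1 of 5 from 21497459 to 21507242 were found in another list. The chains ranked 2 and 3 in LYP9 and in PA64s on chromosome 2 had 3 or 4 of their 4 peaks found. The stretches in this and the next 2 paragraphs were picked after their values were seen and are given as a description. On chromosome 2 a stretch of 10.2 kb, from 23190329 to 23200536, held 9 peaks in LYP9, 11 in 93-11 and 9 in PA64s. Of its 12 merged regions, 8 were present in all lists, against 25.3% of all nuclear regions. The tallest in LYP9, at 23190329 to 23190509, had a pileup of 75 tags in LYP9, 71 in 93-11 and 48 in PA64s. That at 23192937 to 23193152 had 52, 84 and 56 tags. The pileup per 1000000 tags was higher in 93-11 than in PA64s in 8 of these 8 regions, by a median factor of 1.41. Over the nuclear genome 88.3% of the regions present in all lists were higher in 93-11 than in PA64s, by a median factor of 1.39 over all of them. In a further stretch of 47.5 kb, from 13591274 to 13638751, 5 of 13 regions were present in all lists and 6 in a single list. Of the 5 in all lists, 4 were higher in 93-11 than in PA64s, and the median factor over the 5 was 1.13.

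A stretch of 2.94 kb on chromosome 2, from 28712977 to 28715914, held the tallest peaks of either chromosome. Its region from 28714901 to 28715049 reached 162 tags in LYP9, 162 in 93-11 and 160 in PA64s. The next, from 28715603 to 28715914, reached 149, 161 and 159 tags. The region from 28712977 to 28713092 reached 90, 92 and 95 tags. Between them, from 28715365 to 28715504, LYP9 had a peak of 38 tags and PA64s one of 117, while 93-11 had no listed peak. The file headers set a maximum of 2 tags at the same position, and they name the input as non-redundant. If no more than a single tag started at a base of each strand, a pileup cannot exceed 2 times MACS's fragment length, or 162 tags in LYP9, 166 in 93-11 and 162 in PA64s, and likeness among the tallest peaks would be bounded by this ceiling.

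The first 100 kb of chromosome 6 held 22 peaks in LYP9, 23 in 93-11 and 23 in PA64s, which is 7.61%, 6.89% and 12.8% of the peaks of that chromosome. They formed 29 regions, 15 of them in all lists, against 25.3% of all nuclear regions. In 13 of these 15 the pileup per 1000000 tags was higher in 93-11 than in PA64s, and the median factor over the 15 was 1.24. The median pileup there was 37 tags in LYP9, 40 in 93-11 and 39 in PA64s. The first region, from 406 to 705, stood at the very start of the sequence with 47, 56 and 29 tags. The first 100 kb of chromosome 2 held 1 peak in LYP9, 1 in 93-11 and 0 in PA64s, and the last 100 kb 7, 5 and 2. The last 100 kb of chromosome 6 held 1, 0 and 0. Further along chromosome 6, a stretch of 17.3 kb from 10158441 to 10175788 held 11 peaks in LYP9, 12 in 93-11 and 13 in PA64s. Its 12 regions included 10 present in all lists, against 25.3% of all nuclear regions. In 10 of these 10 the pileup per 1000000 tags was higher in 93-11 than in PA64s, by a median factor of 1.59. The nuclear share was 88.3% of the regions present in all lists. A neighbouring stretch of 10.4 kb from 9874636 to 9885000 held 9, 9 and 6 peaks. Of its 11 regions, 5 were present in all lists, and by pileup per 1000000 tags 93-11 was above PA64s in 5 of these 5. Fold enrichment over MACS's local background was modest there, with medians of 6.12, 5.71 and 6.62 in LYP9, 93-11 and PA64s, against 21.8, 34.2 and 18.3 in the stretch of 2.94 kb on chromosome 2.

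**Figure D2:**
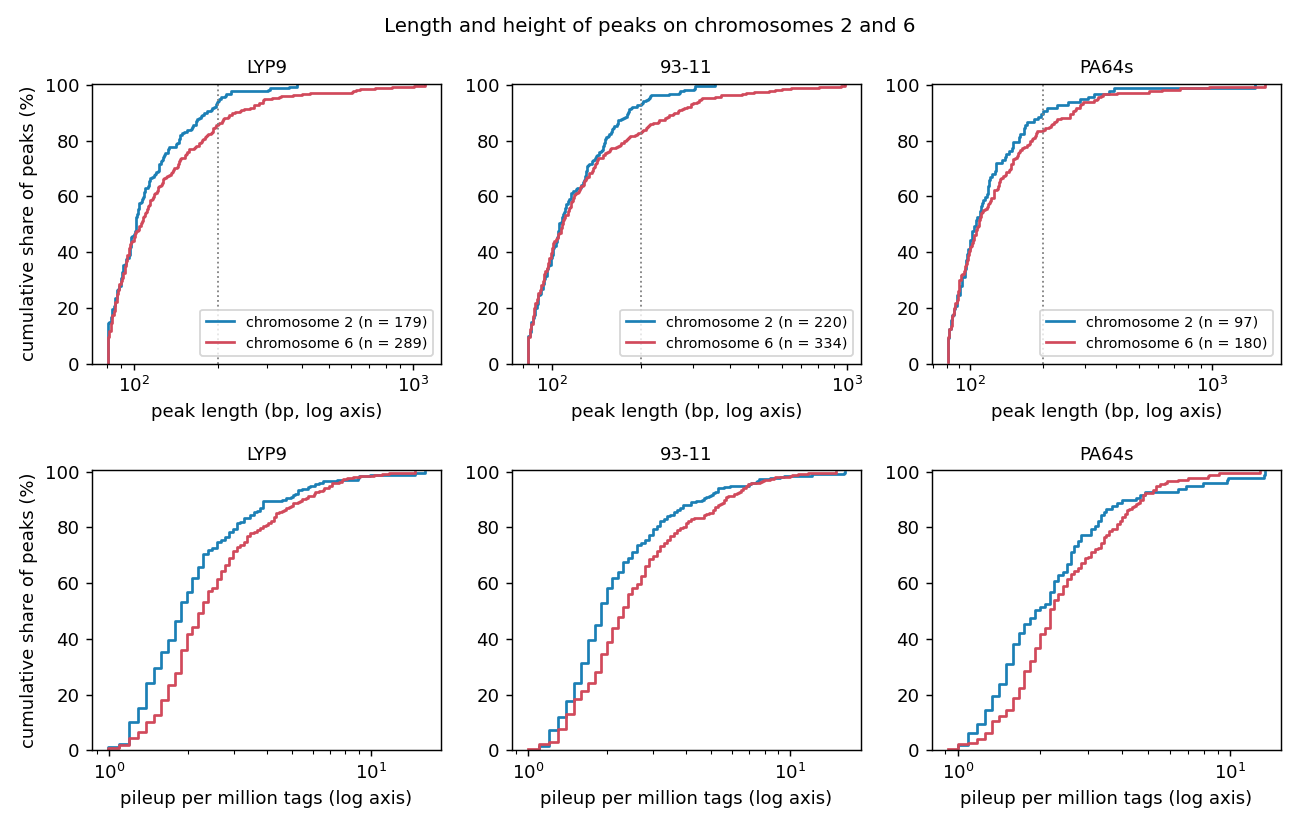
Cumulative share of peaks (vertical axis, percent) by length in bp (upper row) and by pileup per 1000000 tags (lower row), both on log axes, for LYP9, 93-11 and PA64s from left to right. Curves are chromosome 2 and chromosome 6; the dotted line marks 200 bp, which 6.15%, 7.27% and 10.3% of chromosome 2 peaks and 14.5%, 17.1% and 16.7% of chromosome 6 peaks reach.

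Peaks were short on both chromosomes, and chromosome 2 had few long ones. The shortest peaks of both chromosomes measured 81 bp in LYP9, 83 bp in 93-11 and 81 bp in PA64s. These values equal MACS's fragment length for each list, so median lengths lie near a floor set by peak calling. The median length was 102 bp on chromosome 2 and 106 bp on chromosome 6 in LYP9, 106 and 108.5 bp in 93-11, and 106 and 109 bp in PA64s. The intervals of these medians overlapped in each list, at 98 to 106 and 100 to 113 bp in LYP9, 103 to 112 and 103 to 114 bp in 93-11, and 98 to 117 and 102 to 120 bp in PA64s. The upper part of the distribution differed more. Peaks at least as long as the shortest sheared fragments, 200 bp, were 6.15% of chromosome 2 peaks (3.11 to 10.7) and 14.5% of chromosome 6 peaks (10.7 to 19.1) in LYP9. In 93-11 they were 7.27% (4.21 to 11.5) and 17.1% (13.2 to 21.5), and in PA64s 10.3% (5.06 to 18.1) and 16.7% (11.5 to 22.9). Elsewhere in the nuclear genome they were 14.6%, 14.8% and 14.9% in LYP9, 93-11 and PA64s. The longest peak of chromosome 2 measured 384 bp in LYP9, 356 bp in 93-11 and 1503 bp in PA64s, and that of chromosome 6 1104, 982 and 1654 bp.

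The height of a peak was compared as its scaled pileup, the pileup per 1000000 tags counted in the file header. The median was 1.89 on chromosome 2 and 2.28 on chromosome 6 in LYP9, with quartiles of 1.49 to 2.63 and 1.79 to 3.37. In 93-11 the medians were 1.90 (quartiles 1.60 to 2.80) and 2.30 (1.80 to 3.40), and in PA64s 1.92 (1.51 to 2.76) and 2.18 (1.76 to 3.43). The quartile ranges overlapped widely, and the intervals of the medians were apart in 93-11 alone, at 1.80 to 2.00 and 2.20 to 2.40. They met in LYP9, at 1.79 to 2.08 and 2.08 to 2.38, and overlapped in PA64s, at 1.67 to 2.26 and 2.09 to 2.43. The deposited fold enrichment was closer between the chromosomes than the pileup. Its medians were 8.12 and 8.60 in LYP9, 7.98 and 8.34 in 93-11, and 8.46 and 8.43 in PA64s. The background that this ratio implies, per 1000000 tags, was 0.208 on both chromosomes in LYP9, 0.213 and 0.225 in 93-11, and 0.208 and 0.259 in PA64s. In MACS it cannot fall below a genome-wide level, the fragment length over the genome size of 390 Mb. The medians of chromosome 2 in all lists and of chromosome 6 in LYP9 lay at that level, so they do not measure a local background. When only strong peaks were kept, with a −log10 p of 15.35 (the median over the 3 lists combined) or more, the median scaled pileup was 3.27 and 3.37 in LYP9, 3.25 and 3.40 in 93-11, and 2.76 and 3.35 in PA64s. The gap between the chromosomes narrowed in LYP9 and 93-11 and widened in PA64s, where it was -0.586 among strong peaks and -0.251 among all.

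**Figure D3:**
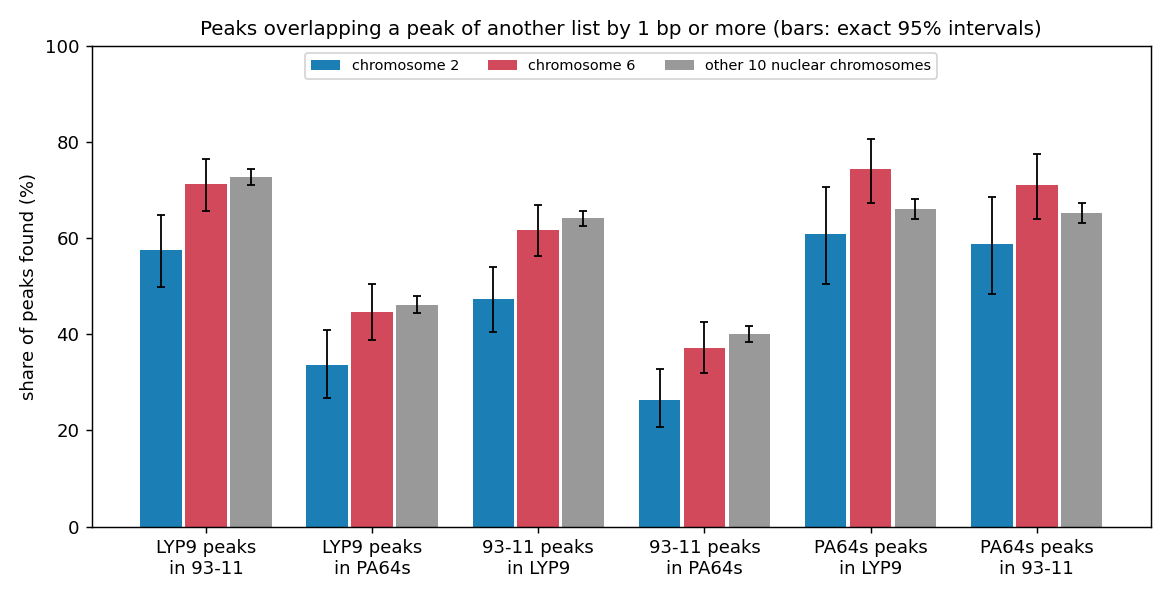
Share of peaks (vertical axis, percent) that overlap a peak of another list by 1 bp or more, for all listed peaks, each ordered pair of lists and chromosome 2, chromosome 6 and the other 10 nuclear chromosomes; error bars are exact 95% binomial intervals. The bar of chromosome 2 is below that of chromosome 6 in each pair, for example at 57.5% and 71.3% for LYP9 peaks in 93-11.

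Peaks of chromosome 2 recurred less often in other lists than those of chromosome 6 when all listed peaks were counted. Chromosome 6 was near the nuclear share for LYP9 and 93-11 peaks and above it for PA64s peaks. Of the LYP9 peaks, 57.5% (103 of 179, interval 49.9 to 64.9) of those on chromosome 2 and 71.3% (206 of 289, 65.7 to 76.4) of those on chromosome 6 were found in 93-11, against 71.9% of all nuclear LYP9 peaks. In PA64s 33.5% (26.7 to 40.9) and 44.6% (38.8 to 50.6) of them were found, against 45.4%. Of the 93-11 peaks, 47.3% (40.5 to 54.1) on chromosome 2 and 61.7% (56.2 to 66.9) on chromosome 6 were found in LYP9, against 63.0% over the nuclear genome. The shares found in PA64s were 26.4% (20.7 to 32.7) and 37.1% (31.9 to 42.6), against 39.0%. Of the PA64s peaks, 60.8% (50.4 to 70.6) and 74.4% (67.4 to 80.6) were found in LYP9, against 66.5%, and 58.8% (48.3 to 68.7) and 71.1% (63.9 to 77.6) in 93-11, against 65.4%. The lists differ in length, so a share depends also on how many peaks the other list offers. Among strong peaks (−log10 p of 15.35 or more) the order of the chromosomes turned for the shares found in PA64s, at 59.7% and 56.2% of LYP9 peaks and 50% and 47.7% of 93-11 peaks. With each list limited to the length of the shortest, the shares on chromosome 2 and chromosome 6 were 51.0% and 56.3% for LYP9 peaks in PA64s, 48.5% and 50.7% for 93-11 peaks in PA64s, and 71.8% and 74.6% for 93-11 peaks in LYP9.

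Counted over either of the other lists, 63.1% of the LYP9 peaks of chromosome 2 (55.6 to 70.2) and 76.5% of those of chromosome 6 (71.1 to 81.2) recurred, against 76.5% of all nuclear LYP9 peaks. For 93-11 the shares were 50% (43.2 to 56.8) and 64.4% (59.0 to 69.5), against 66.1%. For PA64s they were 68.0% (57.8 to 77.1) and 79.4% (72.8 to 85.1), against 72.2%. The mean difference over the lists was -13.0 percentage points. It shrank among strong peaks, where the shares were 87.1% and 88.5% in LYP9, 71.8% and 75.2% in 93-11, and 82% and 82.1% in PA64s.

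The strength and crowding of peaks moved with this difference. Peaks with a −log10 p below 10 made up 40.2% of the LYP9 peaks of chromosome 2 and 24.9% of those of chromosome 6, 41.8% and 29.0% in 93-11, and 30.9% and 22.8% in PA64s. Among these weak peaks 36.1% on chromosome 2 and 44.4% on chromosome 6 recurred in LYP9, 18.5% and 24.7% in 93-11, and 33.3% and 65.9% in PA64s. From 20 upwards the shares were 95.6% and 98.9% in LYP9, 91.1% and 98.0% in 93-11, and 100% and 93.5% in PA64s. Outside dense windows 63.1% of chromosome 2 peaks and 63.4% of chromosome 6 peaks recurred in LYP9, 45.8% and 57.1% in 93-11, and 62.2% and 64.4% in PA64s. LYP9 had 0 peaks in dense windows on chromosome 2, so its 63.1% is the share of the whole chromosome. On chromosome 6 the fullest windows were left out, so the LYP9 shares do not cover like windows. In the dense windows of chromosome 6 the shares were 86.1%, 76.0% and 86.8% in LYP9, 93-11 and PA64s. In those of chromosome 2 they were 67.4% in 93-11 (29 of 43) and 87.0% in PA64s (20 of 23). The part of strength and crowding in the difference was not tested.

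Merging overlapping peaks gave 325 regions on chromosome 2 and 447 on chromosome 6. Regions present in all lists were 51 of them on chromosome 2 (15.7%, 11.9 to 20.1) and 108 on chromosome 6 (24.2%, 20.3 to 28.4), against 25.3% of all 5584 nuclear regions. LYP9 and 93-11 without PA64s shared 52 (16%) and 91 (20.4%), against 19.1%. LYP9 and PA64s without 93-11 shared 9 (2.77%) and 15 (3.36%), against 2.79%, and the parents without LYP9 shared 6 (1.85%) and 9 (2.01%), against 2.22%. Regions in LYP9 alone numbered 66 (20.3%) and 68 (15.2%), against 14.7%. Those in 93-11 alone numbered 110 (33.8%) and 119 (26.6%), against 24.1%, and those in PA64s alone 31 (9.54%) and 37 (8.28%), against 11.9%. Where all lists shared a region their summits mostly lay close together, which the overlap of short peaks favours by construction. The largest distance among the 3 summits had a median of 5 bp on chromosome 2 and 8.5 bp on chromosome 6, beside 9 bp over the nuclear genome. It was at most 20 bp in 74.5% and 68.5% of regions, against 71.0%, and reached 214 and 1198 bp. Regions present in all lists had a median length of 134 bp on chromosome 2 and 149 bp on chromosome 6.

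LYP9 holds a set of chromosomes from each parent, and its peaks were sorted by the parent in which they were also found. On chromosome 2, 50 of 179 LYP9 peaks were in both parents (27.9%, 21.5 to 35.1), and on chromosome 6, 114 of 289 (39.4%, 33.8 to 45.3), against 40.7% of all nuclear LYP9 peaks. Among strong peaks the order turned, at 54.8% and 53.1%, and with lists of equal length the shares were 47.9% and 48.2%. In 93-11 alone were 53 (29.6%, 23.0 to 36.9) and 92 (31.8%, 26.5 to 37.5), against 31.2%. In PA64s alone were 10 (5.59%, 2.71 to 10.0) and 15 (5.19%, 2.93 to 8.42), against 4.64%. With lists of equal length the last shares were 3.12% and 8.12%, and among strong peaks 4.84% and 3.08%. In neither parent were 66 (36.9%, 29.8 to 44.4) and 68 (23.5%, 18.8 to 28.9), against 23.5%. Among strong peaks the shares in neither parent were 12.9% and 11.5%, and with lists of equal length 20.8% and 14.7%. The LYP9 peaks in neither parent were low, with a median scaled pileup of 1.49 on chromosome 2 and 1.69 on chromosome 6, against 3.22 and 3.37 for those in both parents.

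Seen from the parents, LYP9 had 52 of the 162 peaks of 93-11 on chromosome 2 that PA64s lacked (32.1%, 24.99 to 39.9) and 91 of 210 on chromosome 6 (43.3%, 36.5 to 50.3), against 44.5% over the nuclear genome. Of the PA64s peaks that 93-11 lacked, it had 9 of 40 on chromosome 2 (22.5%, 10.8 to 38.5) and 15 of 52 on chromosome 6 (28.8%, 17.1 to 43.1), against 19.5%. These shares rest on few peaks and their order turned among strong peaks, at 25% and 19.0%, and they were 6.25% and 23.3% with lists of equal length. For the peaks of 93-11 that PA64s lacked, lists of equal length gave 50.9% and 56.6%. Of the 93-11 peaks also found in PA64s, LYP9 had 52 of 58 on chromosome 2 and 115 of 124 on chromosome 6, against 91.9% over the nuclear genome.

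**Figure D4:**
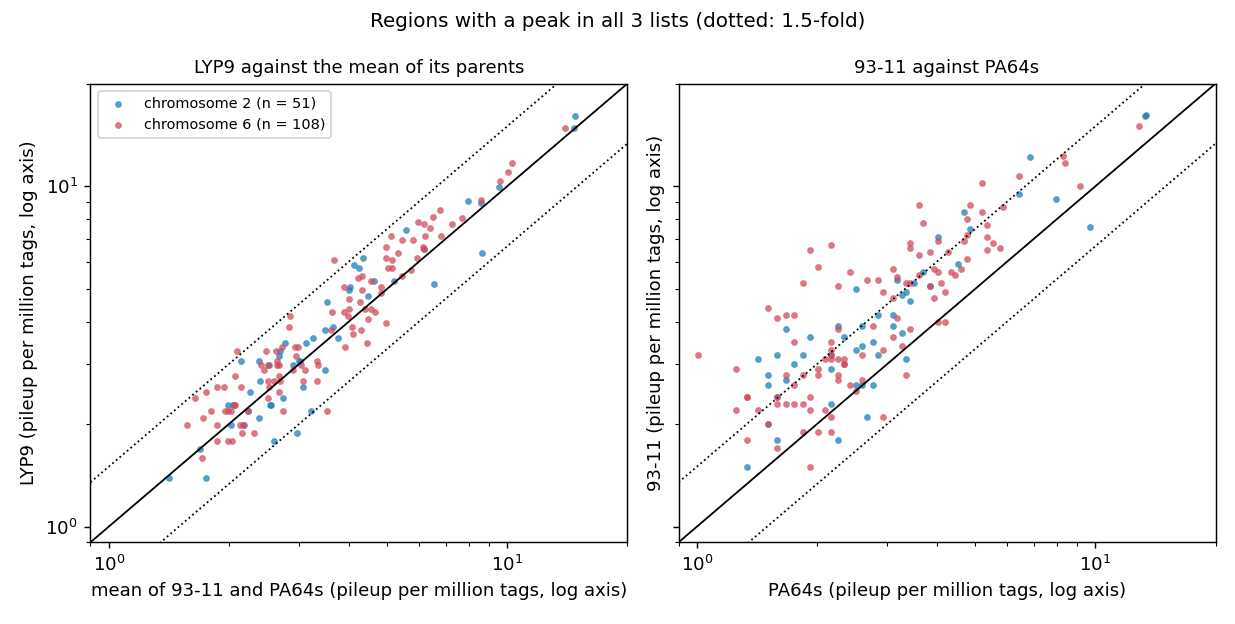
Pileup per 1000000 tags (scaled pileup), on log axes, in the regions of chromosome 2 and chromosome 6 with a peak in all 3 lists: LYP9 against the mean of its parents (left) and 93-11 against PA64s (right). The solid line marks equal values and the dotted lines 1.5-fold. LYP9 is a little above the parental mean, with median ratios of 1.06 and 1.08. The excess of 93-11 over PA64s has median factors of 1.46 and 1.44.

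In the regions common to all lists, LYP9 was close to the mean of its parents. Its scaled pileup was a median of 1.06 times the parental mean on chromosome 2 (1.01 to 1.11, 51 regions) and 1.08 times on chromosome 6 (1.06 to 1.13, 108 regions), beside 1.10 over all 1410 nuclear regions of this kind. Regions at least 1.5-fold higher in LYP9 numbered 0 on chromosome 2 and 2 on chromosome 6, against 2.13% of the nuclear regions. Those at least 1.5-fold lower numbered 1 and 1, against 0.426%. LYP9 lay between its parents in 32 of 51 and 66 of 108 regions, against 58.1% of the nuclear regions. It lay above both in 12 and 32, against 31.0%, and below both in 7 and 10, against 10.9%. The ratio of LYP9 over 93-11 had a median of 0.927 on chromosome 2 (0.878 to 0.952) and 0.944 on chromosome 6 (0.900 to 0.977), beside 0.948 over the nuclear regions. That of LYP9 over PA64s had a median of 1.20 (1.15 to 1.42) and 1.33 (1.24 to 1.43), beside 1.33.

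The parents differed more from each other. The ratio of 93-11 over PA64s had a median of 1.46 on chromosome 2 (1.31 to 1.51) and 1.44 on chromosome 6 (1.33 to 1.51), beside 1.39 over the nuclear regions. It reached 1.5 in 20 of 51 regions on chromosome 2 and 45 of 108 on chromosome 6, against 37.7% of the nuclear regions. The reverse, PA64s higher by 1.5-fold or more, was seen in 0 and 0, against 0.638%. The share on each chromosome was near that of the nuclear genome. Regions enter this comparison only with a peak in each list, and tags of organelle sequences are part of each header total.

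Single regions show the range. The widest excess of 93-11 over PA64s was 3.37-fold, on chromosome 6 from 1299418 to 1299551, where pileups were 54 tags in LYP9, 65 in 93-11 and 23 in PA64s. On chromosome 2 it was 2.27-fold, from 2580984 to 2581254, with 24, 38 and 20 tags. The lowest ratios of 93-11 over PA64s were 0.782 at 12182647 to 12182791 of chromosome 2, with 64, 76 and 116 tags, and 0.716 at 15425079 to 15425170 of chromosome 6, with 24, 21 and 35. LYP9 exceeded the parental mean most at 10158441 to 10158568 of chromosome 6, by 1.65-fold, with 61, 51 and 27 tags. It fell short of it most at 10175379 to 10175560 of chromosome 6, at 0.620 times, with 22, 52 and 22 tags. These regions were taken as the extremes of their chromosome after the values were seen, and no test was made of them.

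The 5 strongest regions of each chromosome present in all lists were taken by mean percentile of −log10 p. On chromosome 2 they were the 3 regions given above of the stretch of 2.94 kb, one from 18881470 to 18881684 with 100 tags in LYP9, 122 in 93-11 and 82 in PA64s, and one from 1831584 to 1831995 with 91, 95 and 77. On chromosome 6, 3 of the 5 lay in the first 100 kb. The region from 31160 to 31426 had 149, 150 and 154 tags. That from 18388 to 18599 had 104, 100 and 109 tags, and that from 83108 to 83381 had 111, 117 and 100. The other two, from 18061319 to 18061564 and from 10309918 to 10310120, had 118, 123 and 99 tags and 72, 88 and 58 tags. By scaled pileup, 93-11 was above PA64s in all 10 of these regions, against 88.3% of nuclear regions present in all lists. The factors ran from 1.10 to 1.81 and passed 1.5 in the regions beginning at 18881470 of chromosome 2 and 10309918 of chromosome 6. Before scaling, PA64s had the higher pileup in the regions beginning at 28712977 of chromosome 2 and at 18388 and 31160 of chromosome 6. In those regions the order rests on the larger tag total of PA64s.

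The strongest peaks found in a single list were weaker than these. In LYP9 they began at 9377979, 25712285 and 21626148 of chromosome 2, with 28, 26 and 23 tags, and at 9883540, 17090719 and 15471930 of chromosome 6, with 51, 23 and 22 tags. In 93-11 they began at 23141739, 27826696 and 15810427 of chromosome 2, with 44, 30 and 27 tags, and at 22342819, 25296499 and 20204268 of chromosome 6, with 32, 30 and 25. In PA64s they began at 24358292, 4782178 and 23193271 of chromosome 2, with 25, 24 and 28 tags, and at 84399, 2755704 and 15086643 of chromosome 6, with 56, 30 and 42. Some stood beside peaks of other lists. The PA64s peaks at 23193271 of chromosome 2 and at 84399 and 15086643 of chromosome 6 lay 119, 800 and 988 bp from one, and the LYP9 peak at 9883540 of chromosome 6 lay 711 bp from one. The 93-11 peak at 23141739 of chromosome 2, with a fold enrichment of 20.7, was 48463 bp from the nearest peak of LYP9 or PA64s, and that at 15810427 of chromosome 2 was 634782 bp away.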

How the data were processed

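The 3 lists of peaks were deposited by the authors, 1 per library. The submitters' processing notes name BWA 0.5.8 as a tool. MACS 2.0.9 was run on every library singly, with no control, at a q-value cutoff of 0.01, a tag size of 81 bp and a fragment length of 81 bp (LYP9, PA64s) or 83 bp (93-11), per the file headers, whose alignment names describe uniquely mapped, non-redundant reads. The sources used here name no genome build. The deposited pileup is a signal of extended tags at the summit, unscaled. The deposited fold enrichment is a ratio to MACS's local background, and the deposited −log10 p was the peak score. Coordinates are those of the files, counted from 1.

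Pileups were scaled to 1000000 tags of the file header. Chromosome length was taken as the last peak end of any list, 35930131 bp for chromosome 2 and 30903388 bp for chromosome 6. Windows of 1 Mb were filled by summit. Peaks overlapping by 1 bp or more were called shared. Intervals are 95%: exact Poisson for densities, exact Clopper-Pearson for shares, the conditional binomial for ratios of counts, and binomial order statistics for medians. The number of tags sets the depth. The only test was an exact sign-flip permutation over the 3 libraries. Members, measures and naming rules were chosen with earlier results of these data known. The rule named, per chromosome, the 5 regions of all lists with the highest mean percentile of the score, the 3 highest-scoring peaks of each list alone, the 3 fullest windows and the window with the largest gap between lists. Alternatives covered score threshold, equal list length, merging, windows, scaling and overlap rule. Routines (Python 3.11.15, numpy 2.4.6, pandas 2.3.3, scipy 1.17.1, matplotlib 3.10.9) were tested on simulated data.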

Additional observations from a re-analysis of the deposited data

How the results depend on the processing

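The density of chromosome 2 stayed below that of chromosome 6 in all 3 lists under the 5 alternatives run. Keeping strong peaks (−log10 p of 15.35 or more) gave ratios of 0.410 in LYP9 and 0.450 in 93-11, and lists of equal length gave 0.419 and 0.441. For the share of peaks in dense windows only other windows were tried. Shifting them by 500 kb gave 17.3% on chromosome 2 in LYP9, and 50.9% in LYP9 and 52.7% in 93-11 on chromosome 6. Windows of 500 kb gave 38.5% in LYP9 and 64.9% in PA64s on chromosome 2, and 73.4%, 57.5% and 80.6% in LYP9, 93-11 and PA64s on chromosome 6. Strong peaks alone had a median length of 109 bp on chromosome 2 and 114 bp on chromosome 6 in LYP9, and median scaled pileups of 3.27, 3.25 and 2.76 on chromosome 2 and 3.37, 3.40 and 3.35 on chromosome 6 in LYP9, 93-11 and PA64s.

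The share of peaks found in another list moved with both filters. Among strong peaks it was 87.1%, 71.8% and 82% on chromosome 2 in LYP9, 93-11 and PA64s, and 88.5% and 75.2% on chromosome 6 in LYP9 and 93-11. With lists of equal length it was 79.2%, 74.8% and 53.6% on chromosome 2 and 85.3%, 78.6% and 68.9% on chromosome 6. A required overlap of 50% of both peaks gave 57.7% for PA64s on chromosome 2, and 70.9%, 57.5% and 71.1% for LYP9, 93-11 and PA64s on chromosome 6. A distance of up to 500 bp gave 69.8% for 93-11 on chromosome 6. LYP9 peaks in both parents were 54.8% (chromosome 2) and 53.1% (chromosome 6) among strong peaks, 47.9% and 48.2% with lists of equal length, and 32.9% on chromosome 6 at 50% overlap. Filters on score keep fewer peaks by construction, and for the other changes the cause was not tested. Of the main comparisons' values, the other 60 stayed within the interval of the value reported. Of the values for single pairs of lists and the other parental classes, 37 moved outside that interval and 43 did not.

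No paired analysis was possible because each cultivar had 1 library, which leaves no replicates to match across cultivars. The sign-flip test of chromosome 2 against chromosome 6 did use the difference within each library. The number of tags limits the detection of weak peaks, and a peak absent from a list is one not called at that depth.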
